A study of Mus musculus with 11 samples.

Results

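The Notch genes of the embryonic mouse forebrain were followed in knockouts of Kif20a, which encodes a kinesin motor of cytokinesis. They were the receptors Notch1, Notch2 and Notch3, the ligands Dll1, Dll3 and Jag1, and the target genes Hes1, Hes5, Hey1 and Nrarp. These 10 genes were picked out by symbol from the 20475 genes of each table, and all 10 were abundant enough to be tested in both comparisons. None of the 10 passed the thresholds for a changed gene, a fold change of at least 1.5 with an unadjusted P of at most 0.05, in either comparison. In the germline knockouts 9 of the 10 fold changes lay above 0, with a wide spread between libraries. In the inducible knockouts 9 of the 10 lay below 0, all but Jag1, and for all but Dll3 the interval of the difference lay within that fold.

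Notch is a receptor that is cut when a ligand on a neighbouring cell binds it. The freed intracellular part enters the nucleus, joins the DNA-binding protein RBPJ and its Mastermind-like coactivators, and switches on Hes and Hey genes, whose products repress proneural genes. In the embryonic cortex this signal keeps radial glia as progenitors, while cells committed to becoming neurons carry the ligands Dll1 and Dll3.

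RNA was taken at embryonic day 12.5 and measured by poly(A) RNA-seq, with the tissue labelled as forebrain and described in the study's methods as cortical cells. There were 3 wild-type and 3 knockout libraries in the germline comparison. These knockouts carried a knockout-first allele, whose cassette with LacZ and neomycin resistance interrupts Kif20a in every cell of the embryo. All these mice go back to 1 targeted embryonic stem cell clone, crossed to C57BL/6J. The inducible comparison had 2 libraries of wild-type and 3 of knockout littermates. There, Nestin-CreERT2, a Cre recombinase that is active in neural progenitors only after tamoxifen, deleted floxed Kif20a. Tamoxifen was given to the dam on consecutive days before collection, so wild-type littermates of this comparison were exposed to it too. Elsewhere in the study the controls of such litters are Kif20a fl/fl without Cre, but the labels of these libraries say only wild type. The labels do not say whether a library was 1 embryo or a pool, so P values measure the spread between these libraries, which may be partly technical.

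Each table holds counts per gene that the authors scaled between its libraries, so that the totals were 13048716 to 15551274 in the germline and 24118520 to 24497307 in the inducible libraries, and the depth of each library is not known. Kif20a itself ranged from 2295 to 2680.2 normalized counts over the germline wild-type libraries and from 374 to 503 over the knockouts. The paper places this remaining germline signal in the first exons of the gene, and ties it to the cassette disrupting the full-length transcript. The inducible range was 4760.2 to 4844 for the wild type and 2853 to 3125 for the knockouts. Kif20a transcript was thus still plentiful in the inducible knockouts. Germline knockout replicate 2 stood apart from the rest, at 91.2 on the first principal component against -38.4 to 3.84 for the other germline libraries. It had 1483 normalized counts of Emx1, a marker of the dorsal telencephalon, against 305 to 708 in the other germline libraries. In the inducible comparison the Y-linked gene Kdm5d was at 0 in both wild-type libraries and at 1259 to 1386 in the knockouts, so sex and genotype cannot be told apart there. Of the germline libraries, the wild type had 485, 1.63 and 1443 normalized counts of Kdm5d and the knockouts 0.52, 0 and 398, so the makeup by sex was uneven there too. As these are bulk samples, fewer cells of a type and less RNA per cell cannot be told apart either.

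To order the members by level, the normalized counts were divided by the length of the longest protein-coding transcript of each gene, in kb. In the germline wild type the most abundant member on this scale was Hes5, at 621 ± 135 (SD, n = 3) normalized counts per kb. It was followed by Nrarp at 509 ± 59.7, Notch1 at 473 ± 114, Hey1 at 385 ± 29.7, Hes1 at 362 ± 25.5 and Dll1 at 361 ± 68.4. Notch2 at 266 ± 63.6, Notch3 at 210 ± 68.6, Jag1 at 90.1 ± 20.7 and Dll3 at 79.2 ± 27.6 normalized counts per kb were the lowest. Only Notch3 and Jag1 were neighbours in this order whose libraries did not overlap, so most of the order was not resolved by the 3 libraries.

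In the inducible wild type, scaled on its own, Hes5 again led at 1245 ± 81.2 (SD, n = 2) normalized counts per kb, followed by Nrarp at 1124 ± 45 and Notch1 at 1081 ± 17.2. Dll1 lay at 829 ± 7.27, Hes1 at 696 ± 81.8, Hey1 at 662 ± 17.9, Notch3 at 597 ± 15.7 and Notch2 at 515 ± 39.9. Dll3 at 230 ± 53.2 and Jag1 at 194 ± 8.41 were the lowest here too. The libraries of Nrarp and Notch1, of Hes1 and Hey1, and of Dll3 and Jag1 overlapped, and the other neighbours did not. Notch1 was thus the leading receptor and Dll1 the leading ligand per unit length in both sets of wild-type libraries.

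**Figure D1:**
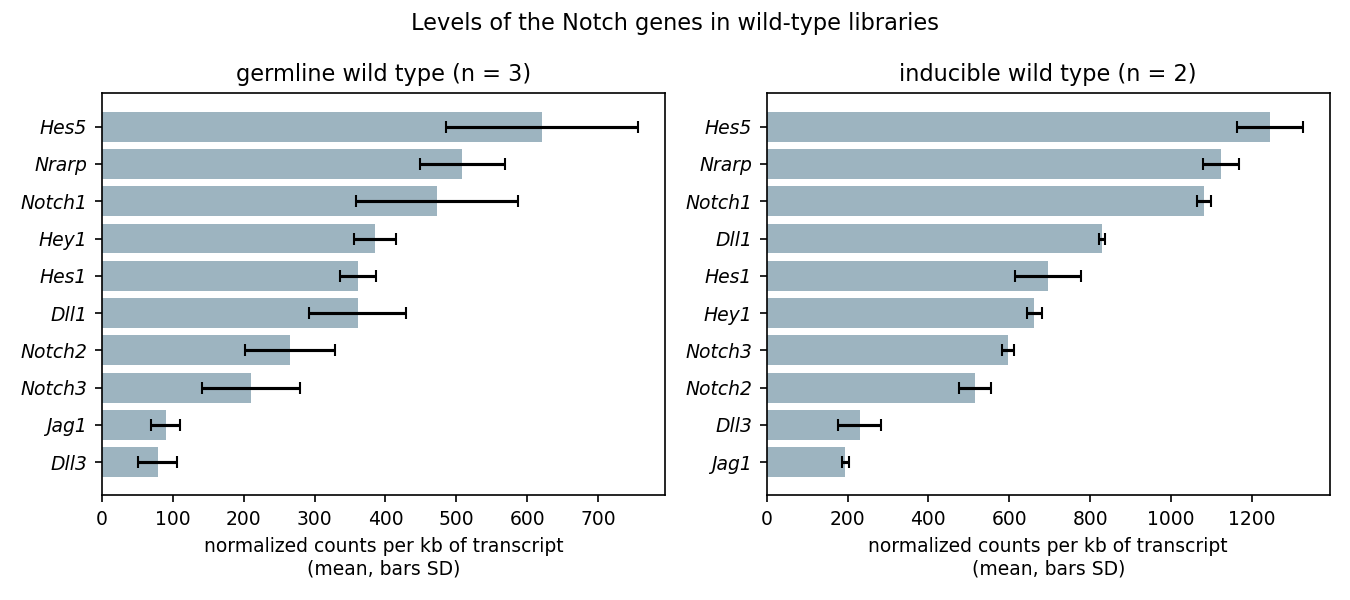
Mean normalized counts per kb of the longest protein-coding transcript for the Notch genes in the germline (left, n = 3) and inducible (right, n = 2) wild-type libraries, with bars of 1 SD. Hes5, Nrarp and Notch1 were the highest and Dll3 and Jag1 the lowest in both, and the panels have separate scales because the tables were normalized separately.

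The receptors are large membrane proteins that carry the signal themselves. Notch1 (chr2:26313423-26372183, minus strand, build NCBIM37, which is mm9) measured 3251, 5283 and 4919.7 normalized counts across the germline wild-type libraries, against 5044, 5121 and 4427 across the knockouts. Wild-type replicate 1 was the lowest of the 6 and the groups overlapped. The log2 fold change of knockout over wild type was 0.15 (SE 0.20, limma adjusted p = 0.867), and it was -0.071 without wild-type replicate 1.

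Notch2 (chr3:97817461-97954290, plus strand) measured 2462, 3559.7 and 2351 normalized counts across the germline wild-type libraries, against 2844, 3931 and 2759.9 across the knockouts. Replicate 2 was the highest of both groups, and the log2 fold change was 0.19 (SE 0.21, adjusted p = 0.844), with values from 0.031 without knockout replicate 2 to 0.38 without wild-type replicate 2. Notch3 (chr17:32257765-32303825, minus strand) measured 1115, 1747 and 2215 normalized counts across the wild-type libraries, against 2853, 1907 and 2325 across the knockouts. The groups overlapped, since knockout replicate 2 lay below wild-type replicate 3. The log2 fold change of Notch3 was 0.52 (SE 0.27, adjusted p = 0.779). Notch3 passed the thresholds when wild-type replicate 3 (0.74) or knockout replicate 2 (0.66) was left out, and its log2 fold change was 0.24 without wild-type replicate 1 and 0.37 without knockout replicate 1.

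Of the receptors in the inducible comparison, Notch3 had an unadjusted P of at most 0.05 and Notch1 and Notch2 did not. Notch1 measured 10374 and 10142 normalized counts across the wild-type libraries, against 10076, 9029.5 and 9899 across the knockouts. Every knockout library lay below both wild-type libraries, by little, and the log2 fold change was -0.087 (SE 0.06, adjusted p = 0.884), or -0.039 without knockout replicate 2. Notch2 measured 5118 and 5710.3 normalized counts across the wild-type libraries, against 5502, 5089.6 and 3687 across the knockouts. Its groups overlapped, with knockout replicate 3 far below the rest, and the log2 fold change was -0.20 (SE 0.16, adjusted p = 0.884), or -0.031 without that library. Notch3 measured 4714 and 4892 normalized counts across the wild-type libraries, against 4207, 4057 and 4113 across the knockouts. The means were 4803 ± 126 (SD, n = 2) and 4126 ± 75.9 (SD, n = 3) normalized counts, and the groups did not overlap. The log2 fold change of Notch3 was -0.22 (SE 0.05), with an unadjusted P of 0.00249, the lowest of the 10, and an adjusted p of 0.656 over all genes tested (limma). The difference stayed under the fold of 1.5.

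The share of the receptors held by each was also taken within single libraries, from counts per kb, which needs no scaling between libraries. Notch1 made up between 47.9% and 51.0% of the sum of the 3 receptors over the germline wild-type libraries, against 46.0%, 46.9% and 45.8% for the knockouts. The knockout shares lay below all wild-type shares, by a few percentage points. Of the inducible libraries, the wild type had Notch1 shares of 50.5% and 48.1% and the knockouts of 50.4%, 49.0% and 54.8%, and the groups overlapped. Notch1 was therefore the most abundant of the 3 receptors in each of the 11 libraries.

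The ligands of the Delta and Jagged families sit on the neighbouring cell. Dll3 differs from the others in that it does not activate Notch on neighbouring cells but holds the signal down within the cell that makes it. Dll1 (chr17:15504318-15513836, minus strand) measured 1019, 1366 and 1492 normalized counts across the germline wild-type libraries, against 1548, 2015 and 1479.9 across the knockouts. Only knockout replicate 3 lay within the wild-type range, and the log2 fold change was 0.38 (SE 0.19, adjusted p = 0.779). It was 0.22 without wild-type replicate 1 and 0.25 without knockout replicate 2. Dll3 (chr7:29076673-29087257, minus strand) measured 129, 221 and 272 normalized counts across the wild-type libraries, against 261, 318 and 258 across the knockouts. The highest wild-type library lay above 2 of the knockout libraries, and the log2 fold change was 0.49 (SE 0.29, adjusted p = 0.779), or 0.18 without wild-type replicate 1.

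Jag1 (chr2:136907192-136942380, minus strand) measured 401, 484 and 631 normalized counts across the germline wild-type libraries, against 625, 451 and 717 across the knockouts. The groups overlapped over most of their range, and the log2 fold change was 0.24 (SE 0.24, adjusted p = 0.833), with values from 0.086 without wild-type replicate 1 to 0.43 without knockout replicate 2. Per kb, Jag1 made up 10.5% of the 3 ligands in germline knockout replicate 2 and between 15.6% and 20.0% in the other germline libraries. That library held more Dll1 and less Jag1 than either of the other germline knockouts.

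Dll1 and Jag1 in the inducible comparison lay apart in opposite directions. Dll1 measured 2951 and 2988 normalized counts across the wild-type libraries, against 2676, 2594 and 2512 across the knockouts. All 3 knockout libraries lay below both wild-type libraries, and the log2 fold change was -0.20 (SE 0.05), with an unadjusted P of 0.00646 and an adjusted p of 0.740 (limma). Jag1 measured 1056 and 1123 normalized counts across the wild-type libraries, against 1389, 1148 and 1276 across the knockouts. It was the only member above its wild type in every knockout library, although knockout replicate 2 exceeded wild-type replicate 2 by little. Jag1 had a log2 fold change of 0.22 (SE 0.09), with an unadjusted P of 0.0411 and an adjusted p of 0.825 (limma).

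Dll3 measured 702 and 505 normalized counts across the inducible wild-type libraries, against 501, 431 and 659 across the knockouts. Wild-type replicate 1 was the highest of the 5 and wild-type replicate 2 lay among the knockouts, and the log2 fold change was -0.19 (SE 0.20, adjusted p = 0.908), or 0.050 without wild-type replicate 1. Within single libraries, the share of Jag1 among the ligands per kb was 14.7% and 16.3% for the wild type, against 20.9%, 18.7% and 19.3% for the knockouts. The ligand mix thus held more Jag1 in each inducible knockout library than in either wild-type library.

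Hes1, Hes5 and Hey1 encode basic helix-loop-helix repressors, and Nrarp encodes a small ankyrin repeat protein that is induced by Notch and in turn limits it. Hes1 (chr16:30064470-30067882, plus strand) measured 568, 493 and 531 normalized counts across the germline wild-type libraries, against 739, 1726 and 539 across the knockouts. Knockout replicate 2 was the highest by a wide margin, knockout replicate 1 was moderately above the wild type, and replicate 3 lay within it. The log2 fold change of Hes1 was 0.73 (SE 0.40, adjusted p = 0.779), the largest of the 10 in size, and it was 0.25 without knockout replicate 2. Without knockout replicate 3 it was 1.09 and passed the thresholds.

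Hes5 (chr4:154335032-154336480, plus strand) measured 608, 950.3 and 813 normalized counts across the germline wild-type libraries, against 978, 1647 and 819 across the knockouts. The same library, knockout replicate 2, was the highest, and replicate 3 lay within the wild-type range. Hes5 had a log2 fold change of 0.50 (SE 0.29, adjusted p = 0.779), and its value without knockout replicate 2 was 0.20, or 0.32 if wild-type replicate 1 was left out. Hey1 (chr3:8663362-8667039, minus strand) measured 909, 856 and 779 normalized counts across the wild-type libraries, against 738, 1311 and 812 across the knockouts. Only knockout replicate 2 lay above the wild type, the log2 fold change was 0.12 (SE 0.23, adjusted p = 0.895), and it was -0.13 without that library.

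Nrarp (chr2:25036278-25038850, plus strand) measured 1137, 1434 and 1355 normalized counts across the germline wild-type libraries, against 1356, 722 and 1287 across the knockouts. Here knockout replicate 2 was the lowest of all libraries, and the other knockouts lay within the wild-type range. The log2 fold change was -0.27 (SE 0.25, adjusted p = 0.827), and it was 0.021 without knockout replicate 2. Within that library, on the log2 scale and relative to the wild-type mean, Hes1 was at 1.70, Hes5 at 1.08 and Hey1 at 0.63, while Nrarp was at -0.85. Per kb, Hes1 made up 35.1% of the 4 targets in it against 16.6% to 23.6% in the other germline libraries, and Nrarp 8.39% against 24.7% to 28.0%. The 4 targets therefore lay on both sides of the wild type in the library farthest from it.

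Hes5 and Nrarp, which lay on opposite sides of the wild type in that library, are shown here by the 250 bases before their start sites. Sequences came from the RefSeq promoter table of build GRCm38.p6, in which 8 of the 10 members were matched, all but Hes1 and Hey1. Each sequence was then located by an exact match on NCBIM37. Capitals in the Hes5 sequence (chr4:154334782-154335031, plus strand) mark the letters of the RBPJ core motif, TGGGAA, read on either strand, and capitals in the Nrarp sequence (chr2:25036028-25036277, plus strand) mark the E box CACGTG, to which Hes and Hey proteins and other helix-loop-helix factors can bind.
Hes5: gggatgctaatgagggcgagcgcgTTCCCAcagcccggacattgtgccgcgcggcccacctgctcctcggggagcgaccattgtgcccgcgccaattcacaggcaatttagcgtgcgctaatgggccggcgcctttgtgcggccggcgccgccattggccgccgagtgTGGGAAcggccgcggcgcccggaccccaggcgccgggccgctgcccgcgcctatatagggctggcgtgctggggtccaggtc
Nrarp: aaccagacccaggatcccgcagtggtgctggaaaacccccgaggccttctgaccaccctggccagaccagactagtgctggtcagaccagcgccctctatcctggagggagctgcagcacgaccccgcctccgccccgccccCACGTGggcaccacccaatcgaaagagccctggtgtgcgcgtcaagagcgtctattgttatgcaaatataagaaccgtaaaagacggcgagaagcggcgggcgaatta

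In the Hes5 window TGGGAA began 82 bases before the start on the plus strand and, read on the minus strand as TTCCCA, 226 bases before it. Of the 9 windows of the 8 matched members, where Dll1 has 2, this was the only 1 that held TGGGAA, and 21.6% of all 32851 promoter windows of this length held it on either strand. Both copies were part of the longer form GTGGGAA, found in 5.42% of all windows. The Nrarp window held CACGTG at 108 bases before the start, as did 6.02% of all windows at any position, and it held no TGGGAA. It also held the N box of Hes factors, CACNAG, found in 36.7% of all windows on either strand, and the Hes5 window did not. A match in these letters is a description of the sequence and does not show that a factor binds there.

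In the inducible comparison all 4 targets were lower in the knockouts on average. Hes5 measured 1658 and 1512 normalized counts across the wild-type libraries, against 1215, 1365 and 1405 across the knockouts. The groups did not overlap, and the log2 fold change was -0.26 (SE 0.08), with an unadjusted P of 0.015 and an adjusted p of 0.825 (limma). Nrarp measured 2973 and 2809 normalized counts across the wild-type libraries, against 2544, 2606 and 2680.5 across the knockouts. These groups did not overlap either, with a log2 fold change of -0.15 (SE 0.05), an unadjusted P of 0.0283 and an adjusted p of 0.825 (limma).

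Hes1 measured 937 and 1107 normalized counts across the inducible wild-type libraries, against 1037, 922 and 819 across the knockouts. Knockout replicate 1 lay between the wild-type libraries, and the log2 fold change was -0.14 (SE 0.12, adjusted p = 0.884), or -0.024 without wild-type replicate 2. Hey1 measured 1431 and 1486 normalized counts across the wild-type libraries, against 1442, 1245 and 1059.6 across the knockouts. Knockout replicate 1 was again within the wild-type range and replicate 3 was the lowest, with a log2 fold change of -0.24 (SE 0.12, adjusted p = 0.850), or -0.12 without knockout replicate 3.

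**Figure D2:**
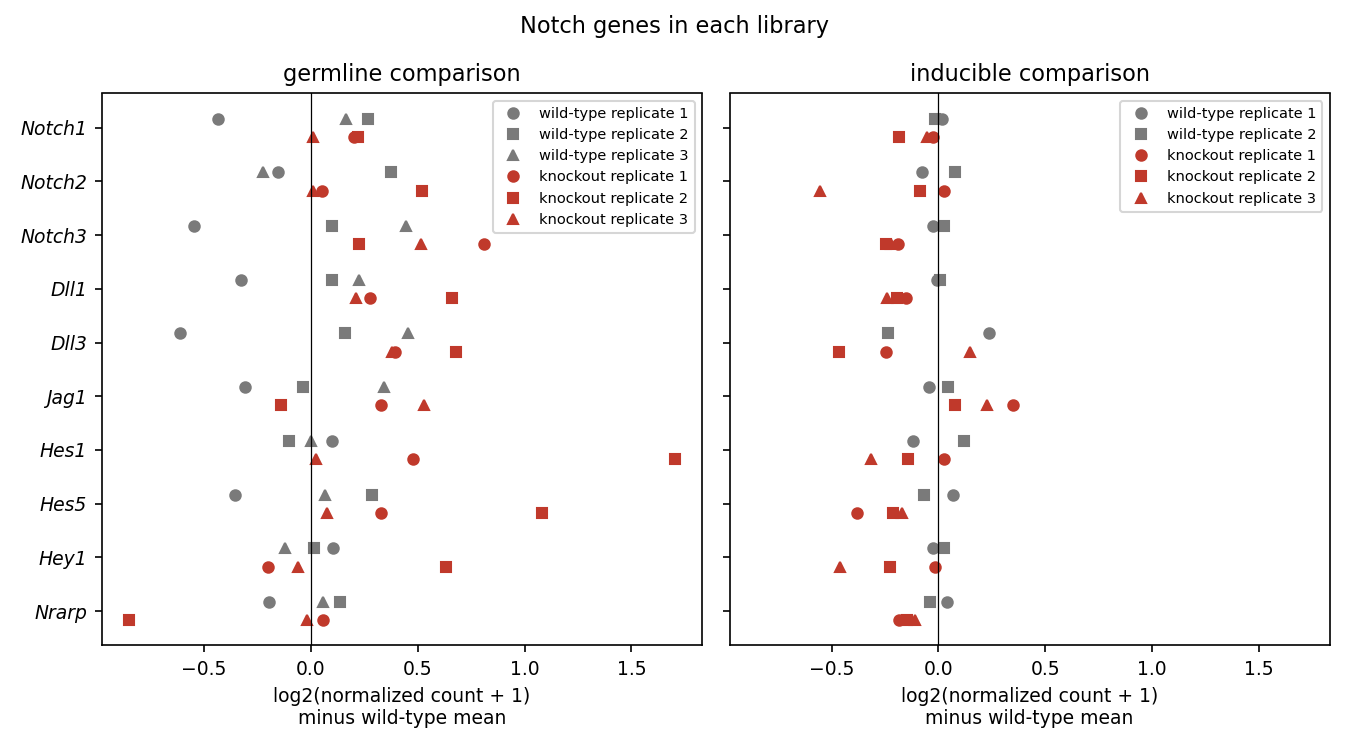
Log2(normalized count + 1) of each Notch gene minus its mean in the wild-type libraries of the same table, with 1 point for each library, wild type in grey and knockout in red. In the germline panel knockout replicate 2 (red squares) is at 1.70 for Hes1, 1.08 for Hes5 and -0.85 for Nrarp, and in the inducible panel the knockouts of Notch1, Notch3, Dll1, Hes5 and Nrarp all lie below the wild type and those of Jag1 above it.

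Taken over the 10 genes, the germline comparison called 0 as higher and 0 as lower. Of all 13938 genes tested, 2.07% were called higher and 0.667% lower. At a P of at most 0.05 with any fold, again 0 of the 10 were higher and 0 lower, where 2.93% and 2.45% of all genes were. In 0 of the 10 did every knockout library lie above every wild-type library, and in 0 below, against 5.9% and 7.55% of all genes. The median log2 fold change of the 10 was 0.31, where that of all genes tested was -0.04 and 44.0% of all genes were above 0. By library, the median of the 10 relative to the wild-type mean was -0.32, 0.12 and 0.11 in the wild type. It was 0.30, 0.58 and 0.05 in the knockouts. Wild-type replicate 1 was thus the lowest, and knockout replicate 3 lay within the wild-type range. With 1 library left out, 1 of the 10 was called without wild-type replicate 3 or without knockout replicate 2, Notch3 each time, and 1 without knockout replicate 3, Hes1.

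The inducible comparison also called 0 of the 10 as higher and 0 as lower, against 0.802% and 0.49% of the 14081 genes tested. At a P of at most 0.05 with any fold, 4 of the 10 were lower, Notch3, Dll1, Hes5 and Nrarp, and 1 was higher, Jag1, where 3.03% of all genes were lower and 2.98% higher. Without wild-type replicate 1, 2 of the 10 were at that P, Notch3 and Dll1. Jag1 was past it without knockout replicate 2 but not without any of the other libraries, and Nrarp only without wild-type replicate 2 or knockout replicate 3. In 5 of the 10 every knockout library lay below both wild-type libraries, and in 1 every knockout library lay above, against 12.2% and 10.4% of all genes. The median log2 fold change was -0.19, where that of all genes tested was -0.002 and 49.2% were above 0. With Benjamini-Hochberg adjustment over all genes the lowest adjusted p among the 10 was 0.656 (limma).

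The intervals of the differences show what each comparison could resolve. In the inducible comparison the 95% confidence interval of the log2 fold change lay within the fold of 1.5, that is within 0.585 on either side of 0, for 9 of the 10 genes. The exception was Dll3, with an interval from -0.65 to 0.28. For Notch3 the interval ran from -0.33 to -0.11, and for Notch1 from -0.23 to 0.06. In the germline comparison the interval reached beyond that fold for all 10 genes, as for Hes1 from -0.20 to 1.67 and for Notch1 from -0.33 to 0.62. It reached that fold on 1 side for each gene. A decrease of that size lay outside the interval for 9 of the 10, and an increase of that size for 1, Nrarp.

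**Figure D3:**
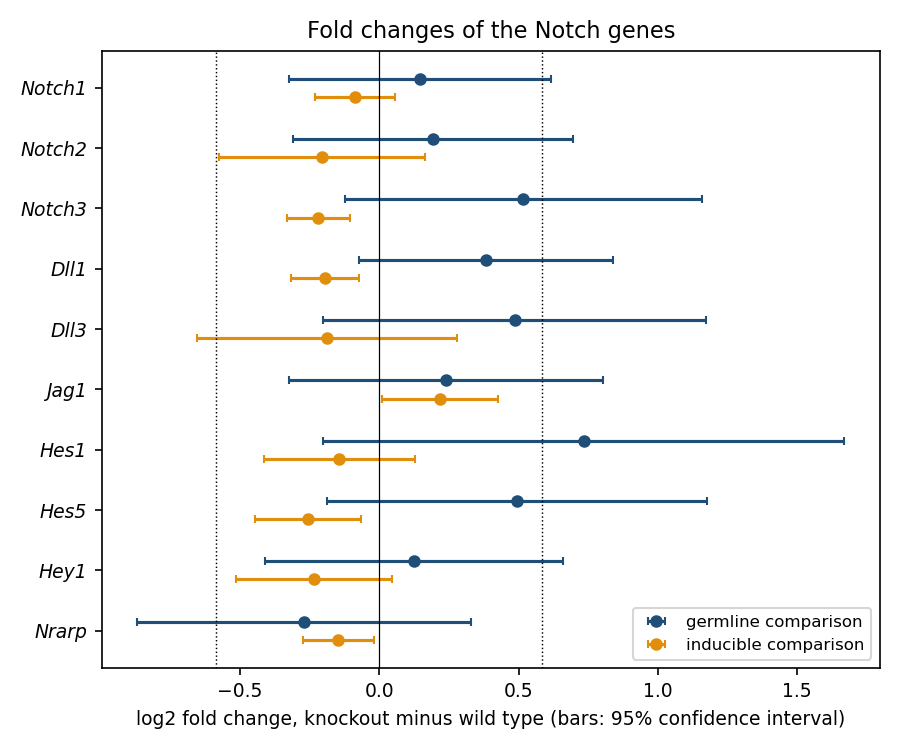
Log2 fold change of knockout over wild type for each Notch gene with its 95% confidence interval, germline in blue and inducible in orange, with dotted lines at a fold of 1.5 in either direction. The inducible intervals are narrow and lie inside the dotted lines for 9 of the 10 genes, and the germline intervals cross at least 1 dotted line for all 10.

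Other genes of the pathway were taken from a list of 52, of which 48 were abundant enough to be tested in both comparisons. Hes2, Hes3, Hes7 and Rbpjl were not. In the germline comparison 0 of the 48 were called in either direction, their median log2 fold change was 0.05, and 27 lay above 0. At a P of at most 0.05 with any fold 2 of the 48 were lower and 0 higher, where 2.45% and 2.93% of all genes were. They were Hes6, which encodes a Hes factor that opposes Hes1, with a log2 fold change of -0.32 (SE 0.13), and Fbxw7, which encodes a ubiquitin ligase subunit that marks the Notch intracellular domain for decay, at -0.33 (SE 0.14). Both had an adjusted p of 0.779 (limma).

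Hes6 measured 1060.3, 1175 and 1043 normalized counts across the germline wild-type libraries, against 790.2, 958 and 876 across the knockouts. Fbxw7 measured 768, 916 and 938 normalized counts across the wild-type libraries, against 651, 669 and 755 across the knockouts. In both genes all knockout libraries lay below all wild-type libraries, knockout replicate 2 included. Of the 48, 3 lay below in this way and 3 above, where 7.55% and 5.9% of all genes did. Neither Hes6 nor Fbxw7 was at that P without wild-type replicate 2, without wild-type replicate 3 or without knockout replicate 1. Without knockout replicate 2 the count over the 48 at that P was 8. The count of called genes was 1, 3 and 5 without knockout replicates 1, 2 and 3. These and the pathway genes that follow were picked for naming after their values were seen.

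Some of the other pathway genes were as uneven across the germline knockouts as Hes1. Bhlhe40, which encodes a helix-loop-helix repressor of the wider Hes family, measured 165, 142 and 113 normalized counts across the wild-type libraries, against 873, 1682 and 112 across the knockouts. Maml3, a Mastermind-like coactivator, measured 459, 659 and 683 normalized counts across the wild-type libraries, against 863, 2082 and 650.1 across the knockouts. In both, knockout replicate 2 was the highest and replicate 3 was close to the wild type, and neither was called. Heyl, a Hey factor that is also made in the walls of blood vessels, measured 88.4, 81.9 and 153 normalized counts across the wild-type libraries, against 105, 2.45 and 201 across the knockouts, with knockout replicate 2 nearly empty.

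In the inducible comparison 0 of the 48 other pathway genes were called, the median log2 fold change was -0.06, and 15 lay above 0. At a P of at most 0.05 with any fold 4 of the 48 were lower and 0 higher, where 3.03% and 2.98% of all genes were. Lfng, which encodes a glycosyltransferase that tunes how Notch receives Delta and Jagged ligands, measured 1251 and 1173 normalized counts across the wild-type libraries, against 1089.7, 1089 and 981 across the knockouts. The others were the coactivator genes Maml1 and Maml3, at log2 fold changes of -0.16 (SE 0.06) and -0.17 (SE 0.07), and Dtx2, a Deltex ubiquitin ligase gene, at -0.19 (SE 0.07). Lfng was at -0.20 (SE 0.07), and all 4 had an adjusted p of 0.825 (limma). The count was 0 without wild-type replicate 1 or knockout replicate 3, and 1 (Lfng) without knockout replicate 2. It was 0 with the replicate number as a block and 2 without the variance trend. Rbpj, the DNA-binding partner of Notch, measured 4859.7 and 4857 normalized counts across the wild-type libraries, against 5323, 5004 and 5139 across the knockouts. It lay above the wild type in every knockout library, with a log2 fold change of 0.09 (SE 0.05, limma adjusted p = 0.863). Of the 48, 4 lay above in this way and 9 below, where 10.4% and 12.2% of all genes did.

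Markers of the cells that could carry these genes differed between libraries in the germline comparison. The median of 12 radial glia markers stayed between -0.09 and 0.09 of the wild-type mean, on the log2 scale, in the 3 knockout libraries. Of the 12, 1 was called, Fabp7, which was lower, and 2 lay below all wild-type libraries in every knockout. Of all genes, 0.667% were called lower and 7.55% lay below in this way. The median of 16 neuron markers was at -1.20, 1.10 and -0.84 in knockout replicates 1, 2 and 3. The summed neuron markers ranged from 57660 to 71843 normalized counts over the wild-type libraries and were 30569, 125273 and 37992 over the knockouts. The median of 5 intermediate progenitor markers was at -0.14, 0.72 and -0.33. Knockout replicate 2, the library with the highest Hes1, Hes5 and Hey1, was thus also the only knockout library above the wild-type mean in the neuron and intermediate progenitor markers.

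Vessel markers were low in that library. The median of 12 endothelial markers was at 0.73, -1.85 and 0.30 in germline knockout replicates 1, 2 and 3, and that of 6 pericyte markers at 0.48, -3.10 and 0.34. The summed pericyte markers ranged from 573 to 859 normalized counts over the wild-type libraries and were 1182, 152 and 811 over the knockouts. The endothelial sums were 1745 to 3256 and 3877, 898 and 2725. Of the 16 neuron, 12 endothelial and 6 pericyte markers 0 were called, where 2.07% of all genes were called higher and 0.667% lower. None of these markers was at 0 in all libraries. Jag1, Nrarp and Heyl were lower in knockout replicate 2, where the vessel markers were lowest, than in the other knockouts. Notch3, which is also made by pericytes, was highest in knockout replicate 1 and lowest, among the knockouts, in replicate 2, as were the vessel markers. The part of the vessel cells in these levels was not tested.

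The list of 12 hypoxia-responsive genes summed to between 16865 and 16949 normalized counts over the germline wild-type libraries, against 55259, 74572 and 20308 over the knockouts. Of the 12, 11 were called higher, where 2.07% of all genes were. The order of the knockout libraries in the hypoxia sum, replicate 2, then 1, then 3, was the order of Hes1 and Hes5 in them. It was also that of Notch1, Notch2, Dll1 and Dll3, and of Bhlhe40 and Maml3, so it was not particular to Hes1 and Hes5. Notch3, Jag1, Hey1 and Nrarp had other orders. With 3 libraries this is a description, and the part of the hypoxia response in the levels of these genes was not tested.

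Markers of the cortical hem and choroid plexus, the dorsal midline of the forebrain, had medians of 0.64, 0.94 and 0.40 in the germline knockouts. Of the 12, 5 were called higher, 2 were called lower and 10 lay above 0, against 2.07%, 0.667% and 44.0% of all genes. Their sums ranged from 6941.5 to 9926 normalized counts over the wild-type libraries and were 8675, 8820.5 and 8506 over the knockouts. The medians of the Notch ligands in the same knockouts were 0.33, 0.66 and 0.38, and the part of the dorsal midline in the germline levels was not tested.

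Of the markers in the inducible comparison, the radial glia markers had medians of 0.08, -0.04 and -0.10 in the 3 knockout libraries and the neuron markers of 0.05, 0.15 and 0.32. The hem and choroid plexus markers were at -0.28, -0.32 and -1.17. Of the 12, 2 were called lower and 8 lay below both wild-type libraries in every knockout, against 0.49% and 12.2% of all genes. Their sums were 13098 and 15286 normalized counts over the wild-type libraries, against 12248, 11326 and 6650 over the knockouts. Hes1, Hey1, Notch2 and Dll1 were lowest in knockout replicate 3, where the midline markers were lowest. Hes5 and Nrarp were lowest in knockout replicate 1, and Notch3 was at -0.19, -0.24 and -0.22. Knockout replicate 3 also had the highest medians of the inducible libraries for ventral telencephalon (0.72), pericyte (0.49) and endothelial (0.35) markers. The summed ventral markers of the wild-type libraries were apart too, at 13036 and 7357 normalized counts. The midline markers thus lay above the wild type by median in the germline knockouts and below it in the inducible ones. The medians of the 10 Notch genes lay on the same sides. So did the median log2 fold changes of the hypoxia, intermediate progenitor and radial glia lists. Those of the neuron, endothelial, pericyte and ventral telencephalon lists lay on the opposite sides. The part of any of these lists in the levels of the Notch genes was not tested.

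**Figure D4:**
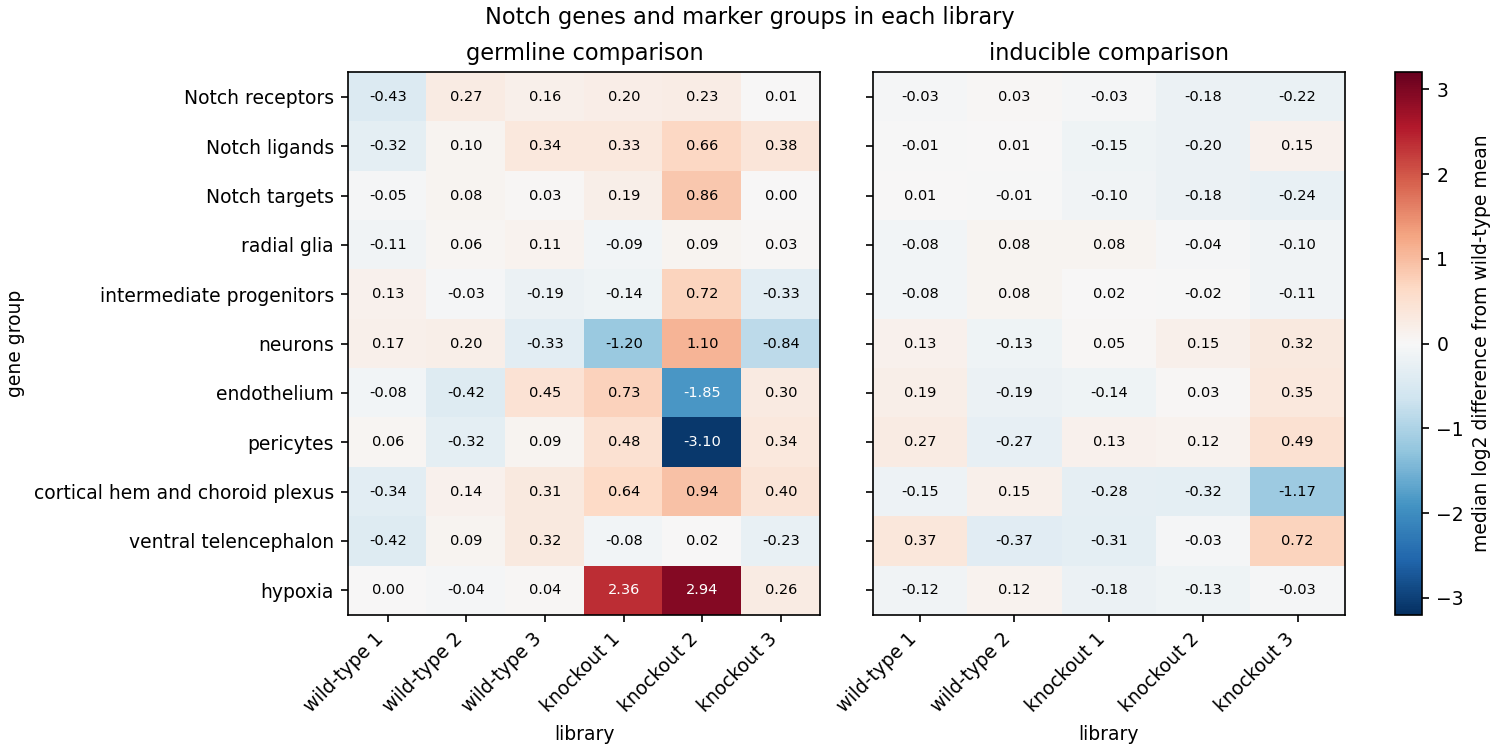
Median log2 difference from the wild-type mean of the same table, for the 3 groups of Notch genes and for 8 marker lists, in each library of the germline (left) and inducible (right) comparison, with red above and blue below the wild-type mean. Germline knockout replicate 2 has the Notch targets at 0.86, the neuron markers at 1.10 and the pericyte markers at -3.10, and in the inducible knockouts the targets lie at -0.10, -0.18 and -0.24.

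The genes whose pattern over the 11 libraries was most like that of 4 members were found by the root mean square difference on the log2 scale, after each was set relative to the wild-type mean of its table, among 13741 genes tested in both. For Hes1 they were Btg3 (0.106), which is listed at 2 positions (0.119 for the other), and Arhgef39 (0.144). Those for Hes5 included Kdm5b (0.105) and AU040320 (0.107). For Dll1 they were Cep131 (0.0554), Vars2 (0.064) and Ptk7 (0.0706), and for Notch1 Nup188 (0.0482), Iqsec1 (0.0504) and Ep300 (0.0557). The differences were larger for Hes1 and Hes5, whose germline knockout libraries were farther apart, than for Dll1 and Notch1.

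Some members share exon sequence with a gene annotated on the opposite strand, and it is not stated whether reads were counted by strand. Shared exon bases were 624 for Dll1 with A930024N18Rik, 433 for Hes5 with RP24-89N4.5, 488 for Notch3 with Gm17276, and 1068 and 414 for Notch1 with 0610009E02Rik and Gm13568. Reads from these stretches cannot be assigned to the member or its antisense partner from the values alone.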

How the data were processed

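Poly(A) RNA of E12.5 embryos was sequenced on an Illumina instrument. Per the study's methods, the authors aligned the reads to mm9 with TopHat, counted them once per gene on RefSeq exons and used edgeR to scale the counts (TMM). The TopHat version is 1.2.0 in the submitters' processing notes, whereas the methods name a later one. The deposited signal holds these normalized counts, 1 table for each comparison. The methods go on to a scaling by gene length and a log2 step. In these values the most frequent low level, between 0.6 and 1.9, differed by at most 0.13 between shorter and longer genes in all 11 libraries, although the longer genes were at least 2.16 times as long by median, so they were taken as neither divided by length nor logged. They are not whole reads, so no count model was fitted and depth is unknown. The scaling assumes that most genes do not change. Each table was normalized alone, so levels were not compared between tables, and no per-sample column was left unused (0).

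A pseudocount of 1 was added before taking log2, and genes whose mean over a table reached 10 normalized counts, 13938 germline and 14081 inducible, were fitted with limma 3.58.1 (R 4.3.3; lmFit, eBayes with trend, two-sided). Log2 fold changes are on this scale. The script was tested on simulated data. Genes were called at the study's thresholds, a fold of 1.5 and an unadjusted P of 0.05, and P values were adjusted over all genes tested (Benjamini-Hochberg). Intervals are 95% confidence intervals of the same fit. Groups and replicate numbers came from the sample labels. Lengths and positions came from GENCODE on NCBIM37.

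The members, the pathway and marker lists and the rule for named genes, which named the 10 members, called pathway genes and the 3 genes most like 4 members, were chosen with earlier results of these data known. Alternatives were pseudocounts of 0.1 and 5, no filter, a mean of at least 50, quantile normalization, array weights, no variance trend, a replicate block and leaving out each library. Counts at P of at most 0.05 at any fold were added after seeing the data. Some genes that these rules name are not reported here.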

Additional observations from a re-analysis of the deposited data

Results flagged for a closer look

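For 4 of the 10 Notch genes every germline knockout library lay above the germline wild-type mean, while every inducible knockout library lay below the inducible wild-type mean. The share of all genes that did so was not computed, so this count has no background to be read against. The log2 fold changes in the germline and inducible comparison were 0.15 and -0.087 for Notch1, 0.52 and -0.22 for Notch3, 0.38 and -0.20 for Dll1, and 0.50 and -0.26 for Hes5. The difference between the comparisons was not tested, since the tables were normalized separately, and the allele, the tamoxifen, the litters and the makeup by sex differ between them. None of these germline differences had a P of at most 0.05. Wild-type replicate 1 was the lowest germline wild-type library for all 4 genes. Without it the germline log2 fold changes were -0.071 for Notch1, 0.24 for Notch3, 0.22 for Dll1 and 0.32 for Hes5. The 12 markers of the cortical hem and choroid plexus had median log2 fold changes of 0.61 in the germline comparison, with 5 called higher and 2 lower, and -0.58 in the inducible comparison, with 2 called lower. The hypoxia (1.81 and -0.11), intermediate progenitor (0.13 and -0.07) and radial glia (0.04 and -0.01) lists had medians of the same signs. The neuron, endothelial, pericyte and ventral telencephalon lists had medians of the opposite signs. The part of any of these lists in these differences was not tested.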

How the results depend on the processing

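The count of 0 members called held in both comparisons under both other pseudocounts, both other filters, quantile normalization, array weights, the replicate block and no variance trend. With 1 library left out at a time the germline count was 0 to 1 and the inducible count 0. The germline count at a P of at most 0.05 with any fold, 0, was 1 with quantile normalization (Dll1) and 0 to 1 with a library left out. The inducible count of 5 was 3 without the variance trend (Dll1, Hes5 and Notch3) and 2 to 4 with a library left out. Notch3 and Dll1 were among those in each of the 5 fits that left out a library. The germline count of other pathway genes called, 0, was 1 with quantile normalization (Dtx3), 3 with array weights and 0 to 5 with a library left out. The inducible one, 0, was 1 with no filter (Hes7). The causes were not tested. With a library left out the germline log2 fold change ranged from -0.071 to 0.28 for Notch1, -0.13 to 0.29 for Hey1 and -0.43 to 0.021 for Nrarp, and the inducible one from -0.42 to 0.050 for Dll3. Hey1 was at -0.066 in the germline comparison with array weights. The direction of the other members held under every alternative run.

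Same-numbered libraries did not deviate together in every pair (r = -0.12, 0.31 and 0.25 germline, -0.35 and -0.05 inducible). Deviations of so few libraries from their group mean depend on each other, so these values cannot decide whether same-numbered libraries shared a litter. The labels do not say. With the replicate block 1 germline member had a P of at most 0.05 (Hes5), 3 inducible members did (Dll3, Hes5 and Notch3), and 3 germline pathway genes were called (Bhlhe40, Dtx3 and Maml3). Depth was not recovered from the normalized values, so counting error was not modelled on its own. The intervals rest on the spread between libraries, of which counting error is a part.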

Other observations

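Among the other pathway genes of the germline comparison, Dtx3, a Deltex ubiquitin ligase gene, was above the wild type in every knockout library without being called. This held for 3 of the 48 tested, near the 5.9% of all genes. The values of Dtx3 follow. It measured 939, 1002 and 1129 normalized counts across the wild-type libraries, against 1325, 2989 and 1239 across the knockouts, with a log2 fold change of 0.74 (SE 0.33, limma adjusted p = 0.779). Dner, which encodes a Notch ligand of neurons, measured 528, 795 and 736 normalized counts across the wild-type libraries, against 325, 2544 and 397 across the knockouts, the same order of knockout libraries as the neuron markers. Both genes were picked after their values were seen.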
